A study of Mus musculus with 2 samples.

Results

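The TGF-β signalling genes examined were the ligands Tgfb1 and Tgfb3, the receptors Tgfbr1, Tgfbr2 and Tgfbr3, the signal transducers Smad2, Smad3 and Smad4, and Tgfb1i1, which encodes Hic-5. Probes were taken where the gene name in the array files equalled one of these 9 symbols, which gave 19 of the 56605 probes and 9 of the 37074 gene names on the array. The measurements came from mDE6 cells, a mouse line labelled as odontogenic epithelial, on 1-colour Agilent arrays. Control cells had 1 array, and so did cells treated with CHIR99021, an inhibitor of the kinase GSK-3 that activates the β-catenin pathway, both at 6 h. The labels give the dose as 5 mM and the control as DMSO, with its percentage written 0/1%, whereas the Methods give 5 μM and an untreated control. The Methods also name a human array, and the file headers name a mouse design with coordinates in mm9. The cells carried no transgene or deletion named in the labels, which do not say whether the line is 1 clone. With 1 array a condition, no difference has a replicate check, no test was possible, and the number of arrays limits the precision. In bulk RNA, fewer cells of a type and less RNA per cell cannot be told apart.

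TGF-β ligands are secreted in a latent form and, once released, bind the type II receptor Tgfbr2, which recruits and phosphorylates the type I receptor Tgfbr1, while the co-receptor Tgfbr3 (betaglycan) presents ligand. The activated type I receptor phosphorylates Smad2 and Smad3, which join Smad4 and enter the nucleus to regulate transcription. Hic-5 is a LIM-domain protein of focal adhesions and the nucleus, first isolated as a TGF-β1-induced gene. In the developing tooth, TGF-β signals pass between the odontogenic epithelium and the mesenchyme beneath it.

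Smad3 and Tgfb1i1 were the genes in which a probe met both criteria for lower expression, and each was read by a pair of probes. The sequences below are the first 30 of the 60 bases of these probes, shown because the results turn on them. They are written 5′ to 3′ with the location that the array files list in mm9, and no part is singled out by capitals. Probes of a gene are numbered by the start in the transcript that the file lists.
Smad3 probe 1 (A_52_P352277), chr9:63495131-63495190, minus strand: cagaactgatgtttagcattctgccgcttt
Smad3 probe 2 (A_55_P2101001), chr9:63494574-63494633, minus strand: tataaacgcccttctaataaacttttcacc
Tgfb1i1 probe 1 (A_52_P949440), chr7:135396024-135396307, plus strand: cccagaacatttctgctgcgtcacgtgcgg
Tgfb1i1 probe 2 (A_55_P2000127), chr7:135397091-135397150, plus strand: atgtagctctcactttgacatgattctggt
The Smad3 probes start 557 bases apart on the transcript and do not overlap, so they are separate readings of the gene's RNA in the same 2 samples. The Tgfb1i1 probes start 677 bases apart, and the file gives probe 1 a genomic span of 284 bases, longer than the probe itself. Exon and UTR annotation of mm9 was not used here.

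Signals are given as deposited, in arbitrary units of brightness, and each ratio is CHIR99021 over control after the signals of each array were divided by their 75th percentile (486.7 for control, 469.2 for CHIR99021). A spot is well above background where the scanner software flagged it so. Of the 19 member probes, 17 were well above background on both arrays, and these were tested, that is, given a ratio. The other 2, both of Tgfbr1, were well above background on neither. A probe was called lower where its ratio was 0.66 or less and its Z-score -2 or less. It was called higher where its ratio was 1.5 or more and its Z-score 2 or more. The Z-score sets a probe's log2 ratio against the mean and SD of the 500 tested probes closest to it in signal. Among all 28066 tested probes, 2.72% were called lower and 2.35% higher. Of the 17 member probes, 2 were lower (Smad3 probe 2 and Tgfb1i1 probe 1) and 0 higher. By the ratio alone 4 member probes were at or below 0.66, against 9.68% of all tested probes.

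**Figure D1:**
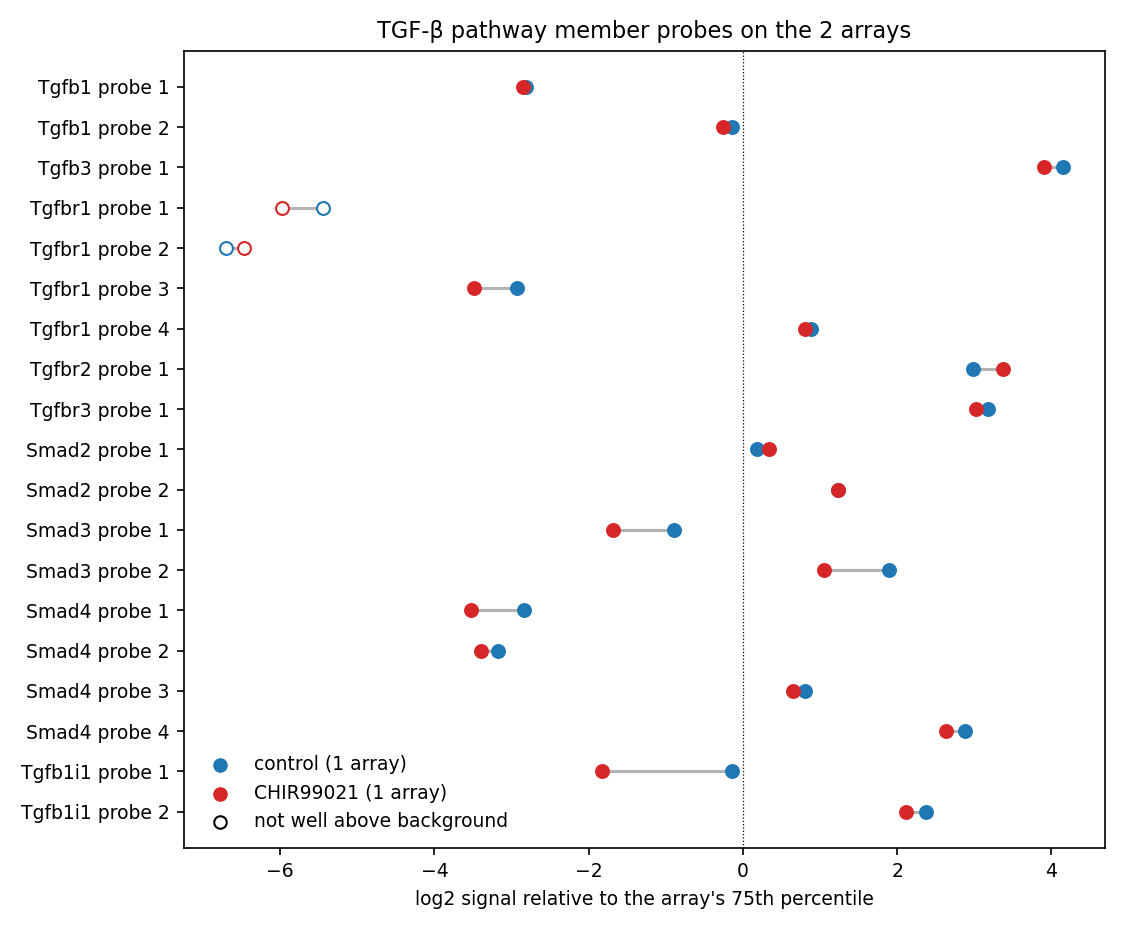
Log2 signal of the 19 member probes relative to the 75th percentile of the array (x axis, log2 units), with 1 point for the control array (blue) and 1 for the CHIR99021 array (red), open where not well above background. The gap within a row is the log2 ratio, widest for Tgfb1i1 probe 1 and next widest for both Smad3 probes; levels of different probes cannot be set against each other, and there are no error bars because each condition has 1 array.

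With 1 value a gene, taken from the tested probe with the highest mean signal, 8 of the 9 members lay below a ratio of 1 and 1 (Tgfbr2) above it. Smad2, at 0.996, was so close to 1 that median scaling, which raises every ratio by the same factor, put it above. The mean over its probes and the earlier rows alone also put Smad2 above, at log2 ratios of 0.07 and 0.16. Among the 18837 gene names tested, 46.6% lay below 1. The median log2 ratio of the members was -0.16, beside 0.02 over all genes. Apart from Smad3, the members ran from 0.837 to 1.30, short of the limits of the ratio criterion on either side. With the mean over the probes of a gene, Tgfb1i1 was at 0.511, past the lower limit, so that 2 of the 9 members met the ratio criterion. At the brightest probe 1 member of 9 met the ratio criterion for lower, beside 9.67% of all genes, and 0 met it for higher, beside 8.05%. With the Z-score added, the same member, Smad3, was called lower, beside 3.22% of all genes, and 2.63% of all genes were called higher. The other 8 members passed no limit at the probe used.

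Among the ligands, the single probe of Tgfb3 gave a signal of 8659 in control and 7063 in CHIR99021 cells. The CHIR99021 signal was lower, at a ratio of 0.846 (log2 ratio -0.24, Z-score -1.16). Tgfb1, the form most widely expressed in tissues, was read by a pair of probes. At probe 2, the brighter, the signal was 443 in control and 392 in CHIR99021 cells, a ratio of 0.918 (Z-score -0.35). At probe 1, which read 69.3 and 65.2, the ratio was 0.976. Neither ligand met a criterion, and the Tgfb1 probes differed from each other by 0.09 in log2 ratio.

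The type II receptor Tgfbr2 was the member with the highest ratio. Its probe read 3875 in control and 4864 in CHIR99021 cells, a ratio of 1.30 (log2 ratio 0.38, Z-score 1.06). The treated signal was the higher one, and 83.9% of all tested probes had a lower log2 ratio. The gene rests on this 1 probe, for which the file lists a genomic span of 10 bases, shorter than the probe itself.

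The type I receptor Tgfbr1 had 4 probes. Probe 4, the brightest, read 901 and 821, a ratio of 0.944 (Z-score -0.28). Probe 3 read 63.7 and 41.7, a ratio of 0.679 (Z-score -0.46), so that its lower ratio was within the wide scatter of probes this dim. Probes 1 and 2 read between 4.70 and 11.2 and were not well above background on either array, and no ratio was taken from them. The co-receptor Tgfbr3, which binds ligand but has no kinase domain, read 4405 in control and 3798 in CHIR99021 cells, at a ratio of 0.894 (Z-score -0.67). Thus the type II receptor was above 1 and the type I receptor and the co-receptor were below it, with none past a limit.

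Smad3, one of the receptor-activated SMADs, was the member with every probe at or below 0.66. At probe 2 the signal was 1812 in control and 972 in CHIR99021 cells. The treated signal was the lower one, at a ratio of 0.556 (log2 ratio -0.85, Z-score -2.72), and 6.0% of all tested probes had a lower log2 ratio. At probe 1 the signal was 263 in control and 145 in CHIR99021 cells, a ratio of 0.574 (log2 ratio -0.80). Both probes were therefore lower by nearly the same factor, 0.05 apart in log2 ratio. Probe 1 had a Z-score of -1.66, since the scatter of log2 ratios among probes of its brightness had an SD of 0.49 against 0.33 for probe 2, and it missed the Z-score criterion.

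The agreement of the Smad3 probes was measured after their values had been seen. Among 5688 genes with at least 2 probes well above background on both arrays, the brightest pair of probes differed by a median of 0.12 in log2 ratio, and in 2.02% of these genes (115) every such probe was at or below 0.66. Smad3 was one of them. Past row 192 of the 384 rows of spots lay 90.5% of the 95 probes that were well above background on both arrays and had over a 4-fold difference. Smad3 probe 1 lay in row 127, before that row, and probe 2 in row 373, after it. The spots touching probe 2 had a median log2 ratio of 0.42, and those touching probe 1 had 0.19. These medians take in spots not well above background, and with no filter on dim probes the median over all genes was 0.18. The part of position on the array in the Smad3 values was not tested. Over the other processing settings the log2 ratio of the gene ran from -0.90 to -0.80. With normexp background correction the ratio of probe 1 was 0.6601, just past the limit, so that only probe 2 met the ratio criterion there.

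**Figure D2:**
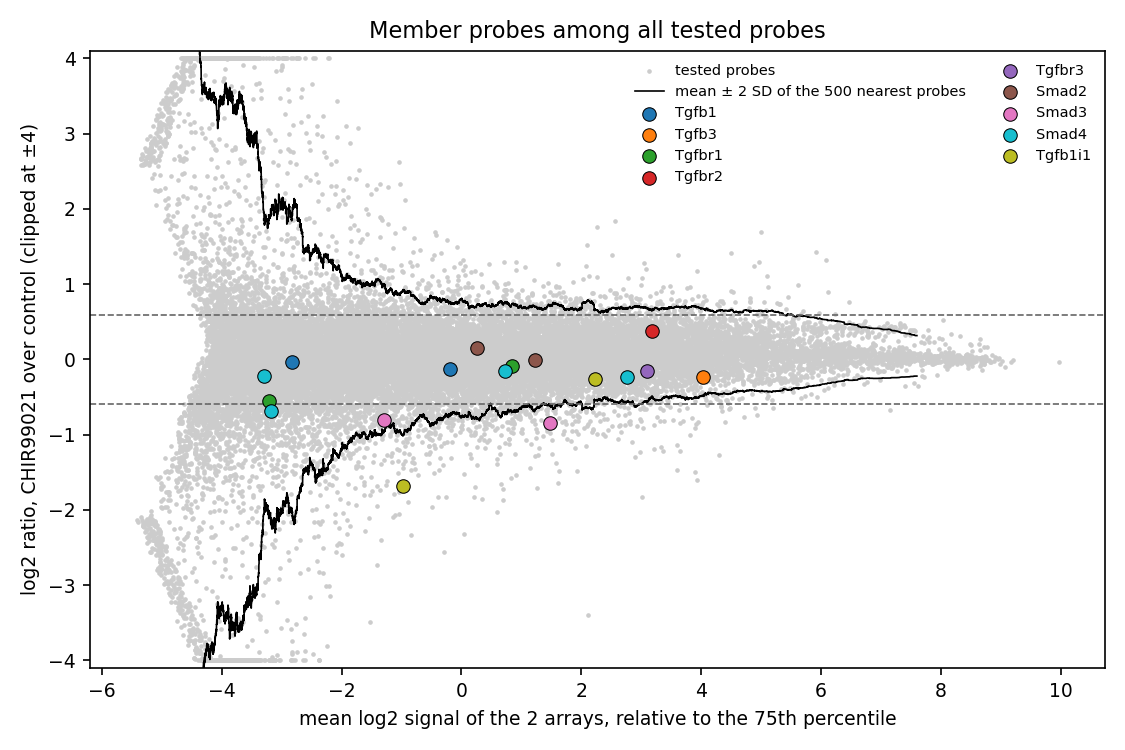
Log2 ratio of CHIR99021 over control (y axis, drawn at ±4 where larger) against mean log2 signal of both arrays (x axis) for the 28066 tested probes (grey) and the 17 tested member probes (coloured by gene), with dashed lines at the ratio limits of 0.66 and 1.5 and solid lines at 2 SD either side of the mean of the 500 nearest probes. Smad3 probe 2 and Tgfb1i1 probe 1 lie below both lower lines, Smad3 probe 1 lies under the dashed line alone, and the dim probes of Smad4 and Tgfbr1 at the left lie within a wide scatter.

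Smad2, the other receptor-activated SMAD of the pathway, was read at nearly equal strength on both arrays. Probe 2, the brighter, read 1144 in control and 1098 in CHIR99021 cells, a ratio of 0.996. Probe 1 read 555 and 596, a ratio of 1.11 (Z-score 0.49). The probes fell on either side of 1, with Z-scores of -0.06 and 0.49, and no direction is given for the gene.

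Smad4, the common partner of the receptor-activated SMADs, had 4 probes, all with ratios below 1. Probe 4, the brightest, read 3581 in control and 2925 in CHIR99021 cells, a ratio of 0.847 (Z-score -0.94). Probe 3 read 849 and 735, a ratio of 0.899. The other 2 were dim, at 67.8 and 40.8 for probe 1 and 53.6 and 44.5 for probe 2, with ratios of 0.624 and 0.861 and Z-scores of -0.61 and -0.16. Probe 1 thus passed the ratio limit but not the Z-score limit, and the brighter probes did not pass either.

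The probes of Tgfb1i1 disagreed in size. Probe 2, the brighter, read 2508 in control and 2023 in CHIR99021 cells, a ratio of 0.837 (log2 ratio -0.26, Z-score -1.04). Probe 1 read 443 and 132, a ratio of 0.310 (log2 ratio -1.69, Z-score -3.45), the lowest ratio among the member probes. Both were lower in treated cells, but they differed by 1.43 in log2 ratio, a gap wider than in 99.1% of the 5688 genes with at least 2 measured probes. The gene is among those that the study listed as lowered from these same arrays, so a lower probe is not independent evidence of its direction.

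Measurements of the spot of Tgfb1i1 probe 1 are given here beside its low value. Its pixels were uneven on the control array, with an SD over mean of 0.276, above the limit of 0.260 that 99% of well-measured spots in the earlier rows kept. No other member probe passed such a limit. The probe lay in row 307, its 8 touching spots had a median log2 ratio of -0.65, and 6 of 43 spots within 3 rows and columns differed by more than 4-fold. Around the other member probes that count ran from 0 to 5. Both measures take in spots not well above background, and the share over all spots was not computed. The part of the unevenness, the row and the neighbouring spots in the result was not tested. The median over the pixels of the spot, before background subtraction, was 493 on the control and 213 on the CHIR99021 array, against means of 515 and 209, so the spot was dimmer on the treated array by either measure. Without uneven spots the probe is left out and Tgfb1i1 rests on probe 2.

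**Figure D3:**
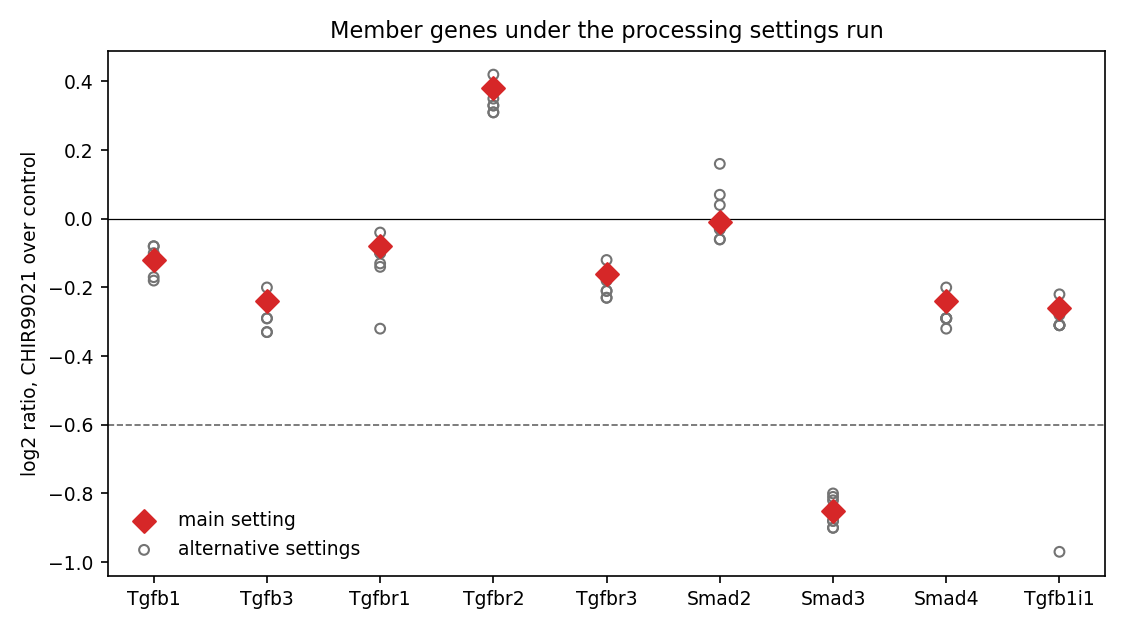
Log2 ratio of CHIR99021 over control (y axis) for the 9 member genes (x axis) in the main setting (red diamonds) and in each alternative processing setting that gave a value (open circles), with a dashed line at the ratio limit of 0.66. Smad3 stays between -0.90 and -0.80, Tgfbr2 stays above 0 at 0.31 to 0.42, Smad2 lies on both sides of 0, and the lowest circle of Tgfb1i1, at -0.97, is the mean over both its probes.

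Genes around the members were grouped into 5 lists by role. The extracellular list held proteins that keep TGF-β latent or release it. Of its 18 genes 16 were tested, 2 met the ratio criterion for lower and 1 for higher, beside 9.67% and 8.05% of all genes, and the median log2 ratio was -0.03. With so few genes, these counts do not set the list apart from all genes. Thbs1 (thrombospondin-1, an activator of latent TGF-β) read 10000 in control and 5101 in CHIR99021 cells, a ratio of 0.529 (Z-score -3.38), and its second probe gave 0.457. Aspn (asporin, a matrix proteoglycan that binds TGF-β) read 94.0 and 53.5, a ratio of 0.591 (Z-score -0.77). Itgb6, the β subunit of an integrin that activates latent TGF-β, read 239 on the CHIR99021 array and was not well above background in control cells, so that it was at least 10.5-fold higher. That spot, in row 258, was uneven on the CHIR99021 array, with a pixel SD over mean of 0.386. The second Itgb6 probe was well above background on neither array.

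The list of other ligands and receptors of the same SMAD branch had 14 of 16 genes tested, with 1 lower and 2 higher by the ratio criterion, beside 9.67% and 8.05% of all genes, and a median log2 ratio of 0.04. Tgfb2, the remaining TGF-β ligand, read 365 in control and 681 in CHIR99021 cells, a ratio of 1.94 (Z-score 2.53). Its second probe read 131 and 260, a ratio of 2.06 (Z-score 1.98). The 3 TGF-β ligands thus did not share a direction, since Tgfb2 was above the limit for higher and Tgfb1 and Tgfb3 were slightly below 1. Inhba, the activin A subunit, read 8231 and 14690, a ratio of 1.85 (Z-score 2.85). Acvr2b, a type II activin receptor, read 254 and 65.0, a ratio of 0.265 (Z-score -3.41). The gene's other probe was well above background on neither array and gave no ratio.

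Among 23 regulators and cofactors of SMADs, all tested, 1 was lower and 1 higher by the ratio criterion, beside 9.67% and 8.05% of all genes, with a median log2 ratio of 0.04. Smad6, an inhibitory SMAD, read 274 in control and 154 in CHIR99021 cells, a ratio of 0.583 (Z-score -1.75), which missed the Z-score criterion. Pmepa1, a TGF-β-induced inhibitor of Smad2 and Smad3 activation, read 3892 and 7364, a ratio of 1.96 (Z-score 2.95). The other inhibitory SMAD, Smad7, had a ratio of 1.26 and passed no limit. Among the weaker probes of genes past no limit, 1 of Tgif2, a corepressor of SMADs, gave 8.05 (Z-score 4.21). Its brightest probe gave 1.04, and the remaining one measured on both arrays gave 1.11. Likewise 1 of Skil, another corepressor, gave 0.532 and 1 of Usp15, a deubiquitinase, gave 1.51, both short of the Z-score criterion. The other weaker probe of Skil gave 0.953, and the other weaker probes of Usp15 measured on both arrays gave 0.840 to 1.36.

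All 24 genes of the list of known TGF-β response genes were tested. By the ratio criterion 3 were lower and 2 higher, beside 9.67% and 8.05% of all genes. All 5 also met the Z-score criterion, beside 3.22% lower and 2.63% higher among all genes by both criteria. The median log2 ratio was -0.06. Ctgf, a matricellular growth factor, read 7391 in control and 1998 in CHIR99021 cells, a ratio of 0.281 (Z-score -5.85). Pdgfb, a platelet-derived growth factor chain, read 188 and 40.4, a ratio of 0.224 (Z-score -2.96). Both are in the study's list of lowered genes from these arrays and are not independent evidence of a direction. Angptl4 read 1122 and 609, a ratio of 0.563. On the other side, the transcriptional repressor Bhlhe40 read 1234 and 3417, a ratio of 2.87. Vegfa, an endothelial growth factor, read 4574 and 7642, a ratio of 1.73. Of its other 3 probes, 2 gave 1.79 and 1.60 and the dimmest gave 0.879. The remaining 19 genes, among them fibronectin (Fn1) at 0.974, passed neither ratio limit at the probe used. A weaker probe of Acta2, smooth muscle actin, gave 0.639 (Z-score -1.63), short of the Z-score criterion.

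For Tgfb1i1, the list of Hic-5 relatives and focal adhesion partners had 9 of 10 genes tested, 0 past either ratio limit, beside 9.67% lower and 8.05% higher among all genes, which for 9 genes is too few to read anything from. The median log2 ratio was -0.15, but 0.07 with the mean over the probes of each gene. The ratios ran from 0.699 for the focal adhesion kinase relative Ptk2b, which read 587 and 395, to 1.25 for the adaptor Git2, which read 1148 and 1386. Paxillin (Pxn), the closest relative of Hic-5, had a ratio of 1.00 at the brightest of its 3 probes. The only other one well above background on both arrays gave 1.53 (Z-score 0.41), short of the Z-score criterion.

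**Figure D4:**
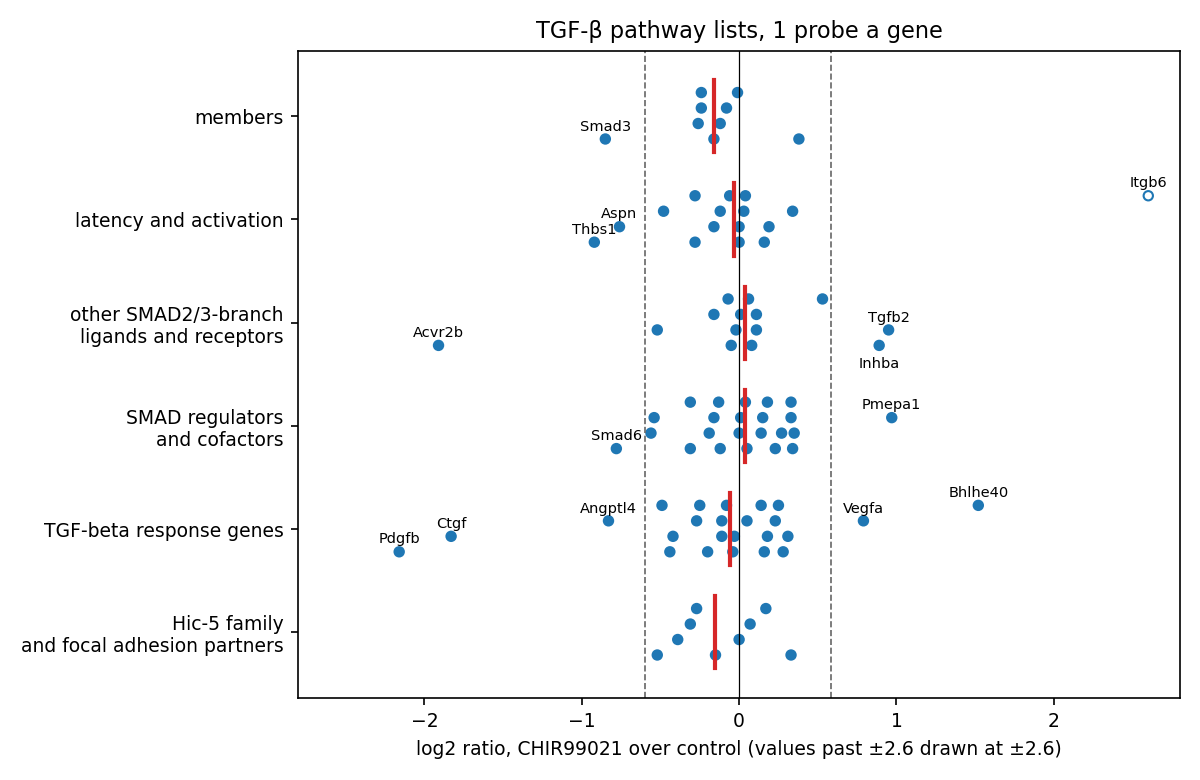
Log2 ratio of CHIR99021 over control (x axis) for the tested genes of the member set and of the 5 lists (rows; points are spread vertically for legibility), 1 probe a gene, with red bars at the medians, dashed lines at the ratio limits of 0.66 and 1.5 and an open point where the gene was not well above background on 1 array. Genes past a limit are named: Smad3 among the members and 13 genes of the lists, 7 lower and 6 higher, with Itgb6 drawn at the edge because its log2 ratio is past 2.6.

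The cells were checked against marker genes. Of 9 epithelial markers, 4 were well above background on each array and 4, the adhesion molecules Cdh1 and Epcam and the keratins Krt8 and Krt15, on neither. Krt18 was detected in control cells alone, and Krt5 in CHIR99021 cells alone. There Krt5 read 165 and was at least 7.24-fold higher, from a spot in row 379 whose pixels were uneven (SD over mean 0.323). Of 7 markers of dental epithelium and ameloblasts, 6 were detected on neither array, among them the enamel matrix genes Amelx, Ambn and Enam. All 9 mesenchymal markers were detected on both arrays. Of these, Twist1 (ratio 1.55, Z-score 1.67) and Msx1 (1.54, Z-score 1.78) passed the ratio limit for higher but not the Z-score limit. The other mesenchymal markers passed neither ratio limit at the probe used. Both immune markers were detected on both arrays, Ptprc at 1 of its 7 probes, and of the endothelial pair 1 was detected on the control array and 0 on the treated one. The label odontogenic epithelial is therefore met by few of its defining markers here. Lef1, a target of the β-catenin pathway that was chosen after its value was seen, read 239 in control and 691 in CHIR99021 cells, a log2 ratio of 1.58.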

How the data were processed

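Total RNA of control and CHIR99021-treated mDE6 cells was labelled with Cy3, and the authors deposited the intensity of every spot, background-subtracted by Agilent Feature Extraction (10.7.1.1 in the file headers, 9.5.1.1 in the submitters' processing notes) and not normalized between arrays. A second deposited table holds intensities that the authors normalized, by a method not named in the sources used here. For the 17 tested member probes its ratios differed by at most 0.0001 from those after quantile normalization, so both count as the same alternative. The arrays shared 1 slide, and their positions on it cannot be told apart from the conditions.

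From these intensities log2 values relative to the 75th percentile of each array were computed (Python 3.11.15, numpy 2.4.6, pandas 2.3.3), without control spots and outlier flags. Repeated spots of a probe were averaged. A probe was tested if at least 1 array had it well above background, as 28066 probes did. The flag was set for 49.8% of control and 48.3% of CHIR99021 spots. Probes printed 10 times had a log2 ratio SD with a median of 0.03, and the 6 of them that were measured at every spot below the 75th percentile had 0.09 to 0.33. These cover error between spots but not between cultures. The Methods print the Z-score limit without a sign, and it was read as negative; the higher criteria mirror the lower ones. The accession of 17 of the 19 member probes matched a RefSeq gene of assembly GRCm38.p6, with the same symbol in each.

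All members were named. In each list, genes past a ratio limit were named, or otherwise those of lowest and highest ratio. A bound was taken against the higher of a probe's own signal and the lowest signal well above background on that array. Smad7, Pxn, Fn1, Tgif2, Skil, Usp15, Acta2, Lef1, Smad1, Smad5 and Smad9, the comparison of probes within a gene and the values of neighbouring spots were chosen after values were seen. The members and lists were chosen with earlier results of these data known. The alternatives were 4 other scalings, normexp (limma 3.58.1, R 4.3.3; offset 50), the authors' table, other filters on dim or uneven spots, a floor, the earlier rows alone, the ratio criterion alone and the mean over probes. The steps were tested on simulated data, and figures were drawn with matplotlib 3.10.9.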

Additional observations from a re-analysis of the deposited data

How the results depend on the processing

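No paired analysis was possible because control and treated cells had only 1 array each. The count of 2 lower and 0 higher member probes was unchanged under every scaling, normexp background correction, the authors' table, both filters on dim probes and the floor. It was 1 without uneven spots, which drops Tgfb1i1 probe 1, 0 in the earlier rows alone, where neither probe lies, and 4 with the ratio criterion alone. Scaling by a common factor leaves the Z-score as it is, and the filters and the floor left Smad3 probe 2 at the same ratio, so these could hardly change its call. Quantile normalization gave it 0.544 (Z-score -2.70) and normexp 0.558 (Z-score -2.67). Smad3 probe 1 met both criteria in no setting. The median log2 ratio of the members, -0.16, was -0.23 with quantile normalization and in the authors' table, -0.21 without scaling and with the percentile over detected probes, -0.12 with median scaling, and -0.24 in the earlier rows and for the mean over probes. The mean over probes put Tgfb1i1 at -0.97, past the ratio limit. The latency median, -0.03, was -0.13 with quantile normalization and in the authors' table, -0.08 without scaling and over detected probes, and 0.01 with median scaling. The median of the other ligands and receptors, 0.04, was -0.02 without scaling and over detected probes, 0.08 with median scaling and 0.07 with no filter. The median of the SMAD regulators, 0.04, was -0.01 without scaling and over detected probes, 0.08 with median scaling and 0.12 for the mean over probes. The median of the response genes, -0.06, was -0.11 without scaling and over detected probes and -0.02 with median scaling. The median of the Hic-5 partners, -0.15, was -0.20 without scaling and over detected probes, -0.10 with median scaling and in the earlier rows, and 0.07 for the mean over probes. Scaling moved the median of all genes between -0.03 and 0.07. Signal over background limits the dim probes of Tgfbr1, Smad4 and Tgfb1, where neighbours scatter by an SD near 1.0 on the log2 scale. Where a value moved for another reason than fewer spots or probes, the cause was not tested.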

Other observations

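The SMADs of the BMP branch, which carry signals of bone morphogenetic proteins and lie outside the set described above, were looked up after their values were seen. Smad1 read 3588 in control and 3727 in CHIR99021 cells, a ratio of 1.08, and Smad5 read 3308 and 3096, a ratio of 0.971. Smad9, with 1 probe, read 209 and 99.3, a ratio of 0.493 (Z-score -2.03), which met both criteria for lower.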
